A study of Homo sapiens with 5 samples.

Results

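The forkhead genes are the protein-coding genes of GENCODE release 44 whose symbol is FOX followed by 1 letter and digits, with the FOXD4L copies left out. There are 45 of them among 19663 protein-coding genes, and they lie on 19 chromosomes. They were examined for open chromatin in MCF10A, an established non-tumorigenic line of human mammary epithelial cells, by ATAC-seq, in which a transposase cuts and tags accessible DNA. The samples were 5 replicate cultures of 1 group, labelled 1, 2, 3, 5 and 6, all untreated and all grown in medium with insulin (10 µg/ml), cholera toxin (100 ng/ml), EGF (20 ng/ml), hydrocortisone (0.5 µg/ml) and horse serum (5%). Their reads had been merged before hotspots, the regions with more reads than their surroundings, were called. The data are therefore 1 pooled list of 181723 hotspots on hg38, each with a Hotspot score, a number without unit that grows with the local excess of reads. There was no other condition, no value per replicate and no read depth, so no value below carries a replicate error and nothing could be tested between members. Intervals are 95% Wilson intervals and cover counting only. MCF10A is 1 line, so the list describes that line and not breast epithelium at large.

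Forkhead proteins bind DNA through a winged-helix domain that fits the core of the motif TGTTTAC. Some of them, the FOXA factors above all, are pioneer factors that can bind their sites in closed chromatin, and in luminal breast cells FOXA1 prepares sites for the oestrogen receptor. The FOXO factors slow growth and are kept out of the nucleus when insulin signalling activates AKT, FOXM1 drives genes of mitosis, and most other members act in the embryo or in 1 organ.

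A hotspot was assigned to a gene when the gene had the nearest transcription start site (TSS) of any protein-coding gene, within 100 kb. A promoter hotspot lay within 1000 bp of a TSS of the gene. By these rules the forkhead genes held 503 hotspots, of which 501 were assigned to them and 53 were promoter hotspots. Of the assigned hotspots, 450 were distal, which means more than 1000 bp from every protein-coding TSS. Positions are midpoints relative to the gene's nearest TSS, in the direction of transcription, so negative ones are upstream. The epithelial label was set against marker genes: 5 of 7 basal mammary genes (all but KRT14 and TP63) and 6 of 7 luminal genes (all but KRT19) had a promoter hotspot, as did 0 of 3 blood genes. Scores ran from 22.2 to 35.3 at these basal genes and from 4.75 (ELF5) to 33.1 (GATA3) at the luminal ones, with 7.12 at ESR1. All 3 endothelial genes had a promoter hotspot with scores of 4.96 to 6.30, each above that of ELF5. All 5 mesenchymal genes had one with scores of 11.6 to 24.1. Over all protein-coding genes 74.9% had one, so the basal and luminal counts do not by themselves bear out the label. No library could be judged on its own, since the 5 were pooled.

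With genes of any number of TSSs pooled, a promoter hotspot was about as frequent among the forkhead genes as among genes at large. The median score of those present was lower. A promoter hotspot was found at 34 of 45 forkhead genes (75.6%, interval 61.3 to 85.8%), against 14733 of 19663 protein-coding genes (74.9%). A hotspot lay over a TSS itself at 26 of 45 forkhead genes (57.8%), against 65.1% of all genes. Forkhead genes had a median of 1 TSS, against 3 for all genes. Of those with 1 TSS, 15 of 23 had a promoter hotspot (65.2%, interval 44.9 to 81.2%), against 53.9% of all such genes. Of those with several, 19 of 22 had one (86.4%, interval 66.7 to 95.3%), against 81.7%. Over a TSS the shares were 52.2% against 40.8% with 1 TSS, and 63.6% against 72.9% with several. The part of TSS number in the pooled shares was not tested. Where a promoter hotspot was present, its highest score had a median of 15.5 over the 34 forkhead genes, against 20.7 over all genes that had one. Promoter hotspots in the highest 10% of all hotspots (score above 16.1) were found at 17 of 45 forkhead genes (37.8%), against 46.5% of all genes. The scores of the 34 genes ran from 4.48 at FOXR2 to 41.6 at FOXO3, against 4.36 to 349 over all genes with a promoter hotspot. The commonest score in the list, 4.48, was shared by 8035 hotspots, the FOXR2 one among them.

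**Figure D1:**
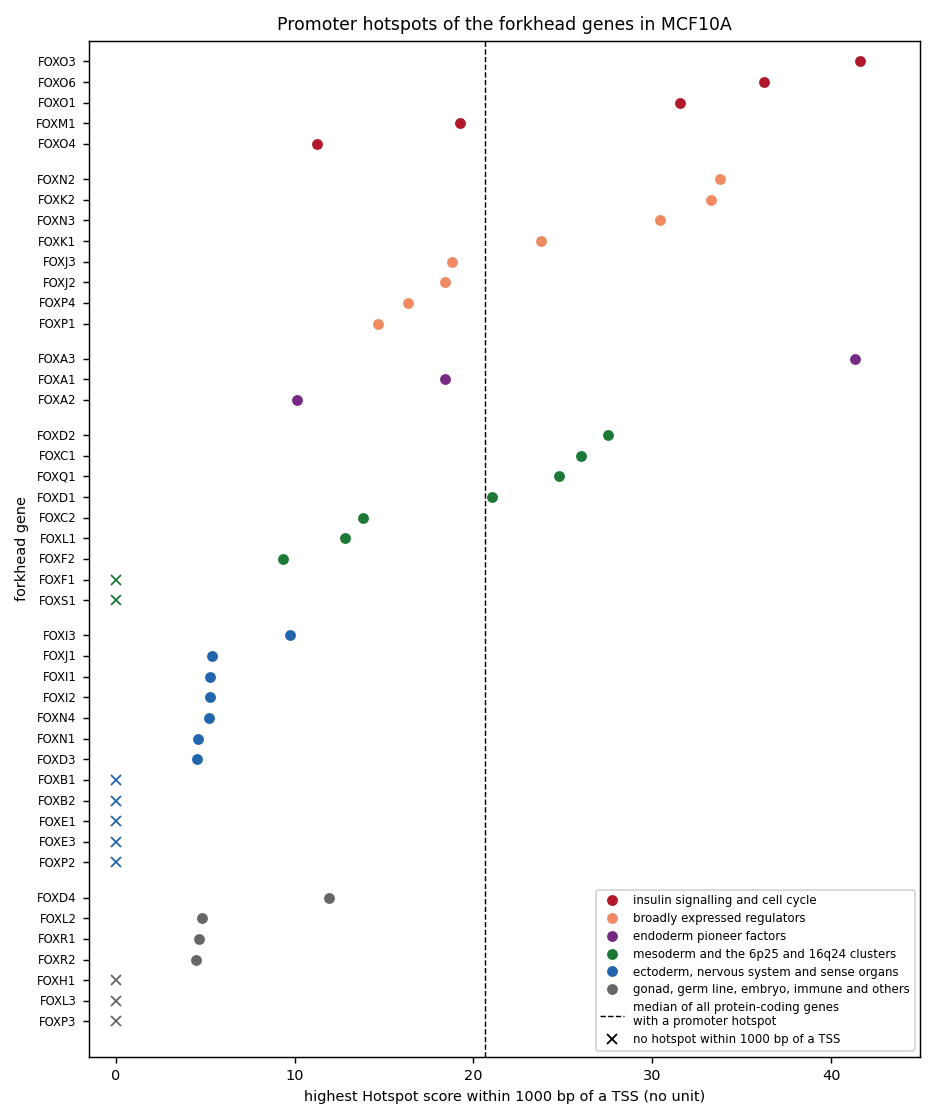
Highest Hotspot score (no unit) within 1000 bp of a TSS for 44 forkhead genes, grouped by role; crosses at 0 mark the 10 of them with no such hotspot and the dashed line is the median of 20.7 over all protein-coding genes with one. The FOXO, broadly expressed and FOXA genes all have a promoter hotspot, while no gene of the lower 2 groups exceeds 11.9.

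The genes fell into a wide range by role. All 5 genes of insulin signalling and the cell cycle (FOXO1, FOXO3, FOXO4, FOXO6 and FOXM1) had a promoter hotspot, with a median score of 31.6, and 4 of the 5 were in the highest 10%. All 8 broadly expressed regulators had one as well, with a median of 21.3 and 7 of 8 in the highest 10%. Of the 9 genes of mesoderm and of the 6p25 and 16q24 clusters, 7 had a promoter hotspot and 4 were in the highest 10%. Of the 13 genes of ectoderm, nervous system and sense organs, 7 had one, with a median score of 5.24 and 0 in the highest 10%. Of the 7 genes of gonad, germ line, embryo and immune cells, 4 had one, with a median of 4.71 and 0 in the highest 10%. These groups were drawn from known roles with earlier results of these data in view, so the counts are a description.

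FOXO3, which turns on genes of stress resistance and cell death when AKT is inactive, had the tallest promoter of the family. Its hotspot scored 41.6, spanned 2457 bp over the TSS and ranked 1173 among the 14733 genes with a promoter hotspot. A second hotspot within 1000 bp of a TSS scored 19.6, and a distal one, at -1802 bp, scored 34.1 over 1573 bp. FOXO6, a member best known from brain, was next among the FOXO genes with 36.3 over 1578 bp. That hotspot ended 64 bp short of the nearest GENCODE TSS of the gene but covered its start in RefSeq. FOXO1, the main mediator of insulin effects in liver, scored 31.6 over 1379 bp. FOXO4, on the X chromosome, was lower at 11.3 over 598 bp. FOXO3, FOXO6 and FOXO1 thus stood above the median of all genes and FOXO4 below it.

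FOXM1, which drives mitotic genes together with B-MYB and the MuvB complex, had 1 hotspot with a score of 19.2 over 1246 bp. Its TSS stands 25 bp from one of RHNO1, which is transcribed the other way, and the hotspot's midpoint was nearer to RHNO1. FOXM1 therefore had 0 assigned hotspots, the only forkhead gene of which that was so, and the openness of its promoter cannot be told apart from that of RHNO1.

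The broadly expressed members were led by FOXN2 (33.8 over 1815 bp), FOXK2 (33.3 over 662 bp) and FOXN3 (30.4 over 2261 bp). FOXN3 is a repressor tied to the DNA damage checkpoint, and FOXK1 and FOXK2 govern metabolism and autophagy genes. FOXK1 scored 23.8 over 2647 bp. FOXJ3 (18.8), FOXJ2 (18.4), FOXP4 (16.3) and FOXP1 (14.6) followed. FOXP1, which acts in B cells, heart and lung, has 33 annotated TSSs and had 7 promoter hotspots, with scores of 4.48 to 14.6. The 2 tallest, with 14.6 and 12.4, each lay over a different start site of the gene.

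The 3 FOXA genes did not share a level. FOXA1 had 1 promoter hotspot, which scored 18.4 over 2226 bp and was also within 1000 bp of TTC6, a gene that starts 380 bp away. FOXA2, which acts in liver, gut and lung endoderm, had 2 promoter hotspots with 10.1 and 8.08. FOXA3 ranked as the second of the family with 41.4, but that hotspot is centred at -882 bp from a FOXA3 TSS and lies within the gene SYMPK, a TSS of which is also within 1000 bp. The hotspot that does lie over a FOXA3 TSS scored 5.85. Without hotspots shared between protein-coding genes, 30 of 45 forkhead genes kept a promoter hotspot; the 4 lost were FOXA1, FOXA3, FOXL2 and FOXM1.

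Promoters that scored 15 or more were broader in the median than lower ones and, like most forkhead promoters, rich in CpG. In 6 genes (FOXA1, FOXC1, FOXK1, FOXN3, FOXO3 and FOXP4) the tallest promoter hotspot spanned more than 2000 bp, and FOXC1 had the widest, at 2745 bp. The 9 genes whose promoter scored under 6 had a median width of 300 bp, and the 8 at 6 to 15 a median of 712 bp. The 8 at 15 to 25 had a median of 1708.5 bp. The 9 at 25 or above had a median of 1578 bp, with widths of 662 to 2745 bp. To show what such promoters are made of, the 250 bases upstream of the RefSeq start (GRCh38.p14) of 5 of the 10 tallest are given from 5′ to 3′, with matches to the GC box GGGCGG, the binding motif of SP and KLF factors, and to the CCAAT box in capitals, either strand. They lie at chr6:108559575-108559824 (FOXO3, plus strand), chr1:41361184-41361433 (FOXO6, plus), chr13:40666642-40666891 (FOXO1, minus), chr6:1609665-1609914 (FOXC1, plus) and chr6:1311848-1312097 (FOXQ1, plus).
FOXO3: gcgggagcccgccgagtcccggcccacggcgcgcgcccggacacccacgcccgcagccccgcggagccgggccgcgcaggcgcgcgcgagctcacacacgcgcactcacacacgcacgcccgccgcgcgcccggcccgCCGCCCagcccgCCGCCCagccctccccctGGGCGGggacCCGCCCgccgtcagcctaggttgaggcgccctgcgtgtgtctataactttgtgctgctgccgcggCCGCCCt
FOXO6: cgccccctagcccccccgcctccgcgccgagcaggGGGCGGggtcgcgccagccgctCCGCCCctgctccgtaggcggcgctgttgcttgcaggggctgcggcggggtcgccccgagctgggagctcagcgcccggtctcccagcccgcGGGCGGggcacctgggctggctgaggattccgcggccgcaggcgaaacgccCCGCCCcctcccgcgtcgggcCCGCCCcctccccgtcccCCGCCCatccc
FOXO1: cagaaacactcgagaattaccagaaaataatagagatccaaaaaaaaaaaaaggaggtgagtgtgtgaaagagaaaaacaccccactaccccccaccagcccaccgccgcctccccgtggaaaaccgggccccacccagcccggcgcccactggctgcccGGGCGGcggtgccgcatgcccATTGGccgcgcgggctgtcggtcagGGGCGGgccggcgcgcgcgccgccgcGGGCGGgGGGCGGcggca
FOXC1: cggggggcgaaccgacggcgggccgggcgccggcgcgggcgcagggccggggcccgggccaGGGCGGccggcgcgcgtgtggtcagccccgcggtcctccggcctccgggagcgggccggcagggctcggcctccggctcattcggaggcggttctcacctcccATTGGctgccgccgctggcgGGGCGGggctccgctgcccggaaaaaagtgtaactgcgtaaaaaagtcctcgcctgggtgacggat
FOXQ1: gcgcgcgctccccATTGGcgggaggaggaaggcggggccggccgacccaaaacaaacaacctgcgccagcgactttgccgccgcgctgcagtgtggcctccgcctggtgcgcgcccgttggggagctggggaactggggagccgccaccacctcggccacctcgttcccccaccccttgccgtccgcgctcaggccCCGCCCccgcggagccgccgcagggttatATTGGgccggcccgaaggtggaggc

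All 250 bases of each of the 5 printed stretches lay under hotspots. The G+C share was 80.4% for FOXO3, 81.6% for FOXO6, 67.2% for FOXO1, 76.8% for FOXC1 and 74.0% for FOXQ1. FOXO6 held 6 GC boxes, FOXO3 held 5, FOXO1 held 4 and FOXC1 held 2. CCAAT boxes numbered 2 in FOXQ1, beside 1 GC box, and 1 each in FOXO1 and FOXC1. None of the 5 stretches held a forkhead site (TGTTTAC or TATTTAC) or an AP-1 site (TGAGTCA or TGACTCA). The stretches of FOXN3 and FOXD2, also among the tallest promoters, were read but are not printed. That of FOXN3 had 211 of 250 bases under hotspots, 73.6% G+C, 1 GC box and 0 CCAAT boxes. It lies at a different start from the tallest FOXN3 promoter hotspot. That of FOXD2 had all 250 bases under hotspots, 76.8% G+C, 3 GC boxes and 0 CCAAT boxes. Neither held a forkhead or AP-1 site. RefSeq promoters, 300 bp long and reaching past the start, were at hand for 34 forkhead genes. Of these 25 (73.5%) held a GC box, against 59.2% of 15307 protein-coding promoters, and 9 (26.5%) held a CCAAT box, against 36.6%. A forkhead site was found in 2 of the 34, FOXB1 and FOXO4 (5.88%, against 4.51%), a TEAD site (CATTCC) in 4 (11.8%, against 11.7%) and an AP-1 site in 0, against 3.68%. The CHR motif of mitotic promoters (TTTGAA or TTCGAA) was in 5 of 34 (14.7%, against 13.5%), and a match is no more than those letters on either strand.

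CpG content was measured as observed over expected CpG within 500 bp of the canonical TSS. The ratio was 0.6 or more at 38 of 45 forkhead genes (84.4%), against 66.7% of all genes. Of these 38 CpG-rich genes, 31 had a promoter hotspot (81.6%), against 89.8% of all CpG-rich genes. Of the 7 CpG-poor forkhead genes, 3 had one (42.9%), against 45.2% of all such genes. All 17 forkhead promoters in the highest 10% of scores belonged to CpG-rich genes, but so did 31 of the 34 forkhead genes with a promoter hotspot of any score. The same share over all genes in the highest 10% was not taken. CpG-rich starts were thus more frequent in the forkhead family than among genes at large. No test was made of either difference.

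**Figure D2:**
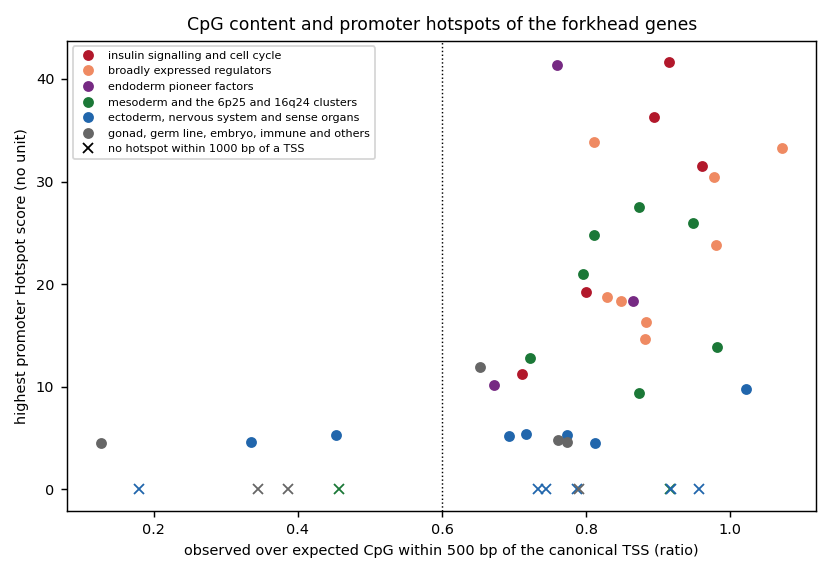
Highest promoter Hotspot score (no unit) against the observed over expected CpG ratio within 500 bp of the canonical TSS for the 45 forkhead genes, coloured by role; crosses at 0 have no promoter hotspot and the dotted line marks a ratio of 0.6. All 17 scores above 16.1 lie to the right of the line, where 7 genes without a promoter hotspot also lie.

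The 11 genes without a promoter hotspot included FOXB1, FOXB2, FOXE1, FOXE3, FOXF1, FOXH1, FOXL3, FOXP2, FOXP3 and FOXS1. Among them are FOXE3 of the lens, FOXE1 of the thyroid, FOXP2 of brain circuits for speech and FOXP3 of regulatory T cells. Of the 11, 7 had a CpG-rich start, FOXB1, FOXB2, FOXE1, FOXE3, FOXF1 and FOXL3 among them. The nearest hotspot lay 9035 bp from a TSS of FOXB1, 6950 bp from FOXP2, 6685 bp from FOXE3, 4053 bp from FOXP3 and 2849 bp from FOXL3. It lay closer at FOXH1 (1950 bp), FOXF1 (1879 bp), FOXB2 (1673 bp), FOXE1 (1207 bp) and FOXS1 (1009 bp), so that a window of 2000 bp added these 5. FOXE1 had 9 assigned hotspots, of which 2 scored 27.4, at -49718 bp, and 24.2, at 23804 bp downstream. FOXB1 had 8, of which the tallest scored 24.04, at 87064 bp downstream. FOXL3, a germ cell sex gene in medaka fish, had 25 assigned hotspots, the tallest at 11.7 and of mostly repeated sequence.

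Another 9 genes had a promoter hotspot with a score under 6. They were FOXD3 of the neural crest (4.55), FOXI1 of ionocytes (5.28), FOXI2 (5.24), FOXJ1 of motile cilia (5.37), FOXL2 of the ovary (4.80), FOXN1 of thymus and hair (4.59), FOXN4 of the retina (5.23), FOXR1 (4.63) and FOXR2 (4.48). All 9 were lost when only hotspots above the median score of the list, 5.81, were used, which left 25 of 45 forkhead genes and 67.3% of all genes. FOXI3, an ectodermal gene, scored 9.75. FOXD4 scored 11.9 in a hotspot inside the gene, centred 1396 bp past its start, and only 14.6% of its 25-base words (25-mers) occur at 1 place in the genome; FOXD4 has near-identical copies, and reads from these cannot be told apart there.

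More hotspots were assigned to the median forkhead gene than to the median gene when protein-coding TSSs alone competed. The median forkhead gene had 8 assigned hotspots (quartiles 5 and 17), against 5 (quartiles 2 and 9) for all protein-coding genes. With the TSSs of all annotated genes competing, the medians were 3 for forkhead genes and 3 for all genes, so the difference was lost. More than 10 were assigned to 17 of 45 forkhead genes (37.8%), against 20.5% of all genes. Their territories were also larger: the stretch of genome nearest to their TSSs had a median of 123 kb, against 59.1 kb for all genes. Per 100 kb of such territory the median was 9.85 hotspots for forkhead genes, against 8.0 for all genes. The hotspots themselves were ordinary in height, with a median score of 5.82, against 5.81 for the assigned hotspots of all genes. They lay between genes more often (58.5%, against 40.3%) and in introns less often (34.3%, against 48.1%), and 10.2% were promoter hotspots of some gene, against 14.7%.

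FOXN3 had the most with 39, in a territory of 617 kb, followed by FOXA2 and FOXP1 with 31 each, FOXL3 with 25, FOXO3 with 23, FOXC1 and FOXK1 with 22, FOXI1 with 21 and FOXO6 with 18. FOXD2, FOXF1 and FOXQ1 had 17 each and FOXF2 had 16. Per 100 kb these genes ranged from 4.49 at FOXP1 to 16.9 at FOXI1. FOXA2 and FOXI1 lie where the whole list was dense. Chromosome 20, with FOXA2 and FOXS1, held 138 hotspots per Mb, against 57.1 over the other chromosomes, and chromosome 5 beyond 120 Mb, with FOXI1, held 128. FOXA2 had 15.4 per 100 kb, against 13.8 for its whole chromosome, and its 29 distal hotspots had a median score of 5.70 and a highest of 10.9. The part of this regional density in the counts was not tested. Without these 2 regions 42 forkhead genes remained, with a median of 8 assigned hotspots and 32 with a promoter hotspot.

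**Figure D3:**
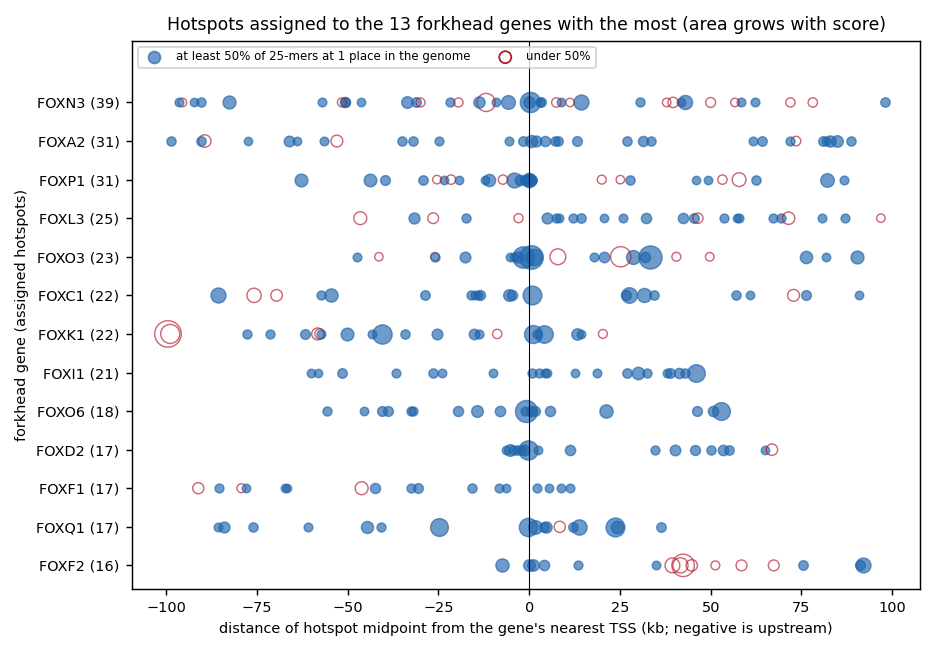
Distance in kb of each assigned hotspot's midpoint from the nearest TSS of its gene for the 13 forkhead genes with the most (number in brackets), with area growing with the Hotspot score. Filled points have at least 50% of their 25-mers at 1 place in the genome and open points under 50%; the tallest point, at FOXK1 and the far left, is open.

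The tallest distal hotspots divided into those of single-copy and those of repeated sequence. The 10 tallest were assigned to FOXK1 (53.0 and 27.6), FOXO3 (40.1, 34.1 and 30.4), FOXF2 (37.6), FOXA1 (37.1), FOXD4 (33.1), FOXJ2 (30.8) and FOXL2 (29.5). In 5 of them no 25-mer occurred at only 1 place in the genome: the tallest of FOXK1, those of FOXF2, FOXA1 and FOXD4, and a hotspot of FOXO3 only 36 bp wide. The FOXK1 one, 328 bp wide and at -99472 bp, had 25-mers with a median of 134 occurrences. The FOXF2 one had 2866 and the FOXA1 one, in an intron of MIPOL1 98653 bp downstream of FOXA1, had 7404. The 36 bp hotspot lies in a FOXO3 exon, with 25-mers that occur at 2 places. Reads of such sequence cannot be told apart between copies, and which copy they came from was not tested.

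The other 5 were mostly single-copy and can be assigned to their place. A hotspot of 1013 bp and score 40.1 stood 33359 bp past the nearest TSS of FOXO3, at chr6:108689199-108690211, between protein-coding genes, and 100% of its 25-mers were single-copy. The FOXO3 hotspot at -1802 bp (34.1), the FOXJ2 hotspot at -5813 bp (30.8), the FOXL2 hotspot 31547 bp downstream (29.5 over 1512 bp) and the FOXK1 hotspot at -40404 bp (27.6 over 1050 bp) completed the set. FOXL2, whose promoter scored 4.80, thus had a distal hotspot far taller than its promoter. So did FOXI2 (23.5 at 60330 bp downstream) and FOXI1 (22.8 at 45828 bp downstream), while FOXE1 and FOXB1 had tall distal hotspots and no promoter hotspot. Such hotspots were given to these genes by distance alone.

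Repeated sequence was less frequent at the forkhead genes than over the list, but the sets were drawn differently. By rule the forkhead hotspots lay within 100 kb of a protein-coding TSS, as did 73.2% of the list. The part of this rule in the difference was not tested. Fewer than 50% of 25-mers were single-copy in 111 of 501 hotspots of at least 25 bp (22.2%), against 34.0% of every 20th hotspot of the list. Among distal hotspots in the highest 10% of scores it was 11 of 31 at the forkhead genes (35.5%), against 56.9%. Among promoter hotspots it was 3 of 53 (5.66%), against 8.11%. When repeated hotspots were left out, 33 of 45 forkhead genes kept a promoter hotspot (FOXD4 was lost), the assigned hotspots came to 388 and the median to 6 per gene. FOXA1 then had 4 assigned hotspots and a tallest distal score of 10.9, FOXF2 had 9 with 16.1, and FOXK1 had 16 with 27.6.

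**Figure D4:**
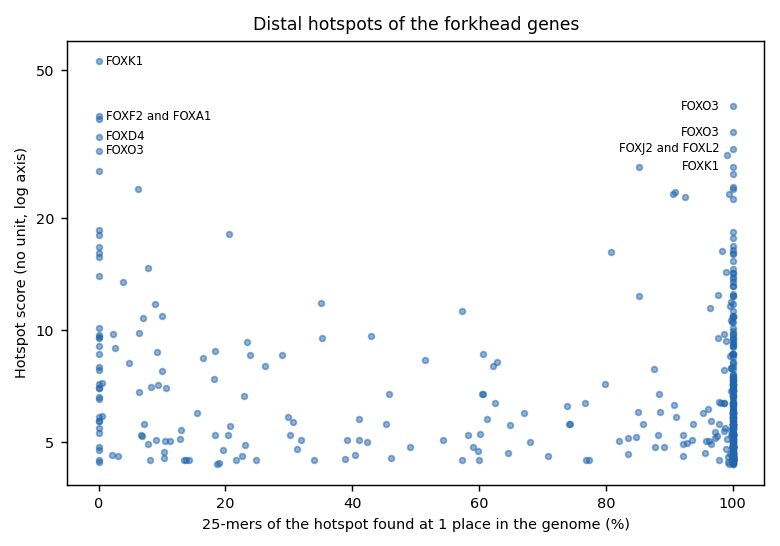
Hotspot score (no unit, log axis) of each distal hotspot of the forkhead genes against the percentage of its 25-mers found at 1 place in the genome; names mark the 10 tallest. 5 of the 10 stand at 0% and 5 at 99.1% or more.

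The 6p25 and 16q24 clusters each hold 3 forkhead genes that arose by duplication, and they differed in height. At 6p25 the genes are FOXQ1, tied to epithelial plasticity, FOXF2 of gut mesenchyme and FOXC1, which marks basal-like breast tumours and acts in the eye. At 16q24 they are FOXF1 of lung vessels, FOXC2 of lymphatic valves and FOXL1 of gut mesenchyme. FOXQ1 scored 24.8 and FOXC1 25.99 at the promoter, and FOXF2 9.37. At 16q24 FOXC2 scored 13.8 and FOXL1 12.8, and FOXF1 had no promoter hotspot. The 6p25 genes had 55 assigned hotspots, or 11.5 per 100 kb of territory, with a median score of 8.04. The 16q24 genes had 26, or 10.9 per 100 kb, with a median of 5.25. Density was thus alike, while the median score was higher at 6p25. At 6p25 18 of the 55 scored above 10, against 5 of the 26 at 16q24, and 5 scored above 20, against 0. These counts include promoter hotspots and hotspots of repeated sequence. Among distal hotspots alone, 15 of 50 scored above 10 at 6p25, against 3 of 24 at 16q24. In the whole list 80.5% of hotspots scored below 10.14 and 93.4% below 21.03. The difference between the clusters was not tested.

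The 2 tallest distal hotspots of mostly single-copy sequence in these clusters were assigned to FOXQ1, with 26.3 at 23575 bp downstream and 23.3 at -24783 bp. Another of FOXQ1 scored 16.9 at 13665 bp downstream. FOXC1 had distal hotspots of 17.7 at 27455 bp and 14.2 at 31550 bp downstream, both in introns of GMDS, and 16.3 at -85700 bp. FOXF2 had its tall group of 37.6, 16.7 and 15.7 at 39457 to 42399 bp downstream, and all 3 of these were of repeated sequence. FOXF1 had 17 distal hotspots with scores of 4.37 to 11.8, and its tallest was of mostly repeated sequence. FOXC2 had only 3 assigned hotspots, in 10.6 kb of territory beside FOXL1. FOXL1 had the tallest hotspot of that cluster, 16.4 at 86259 bp downstream.

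**Figure D5:**
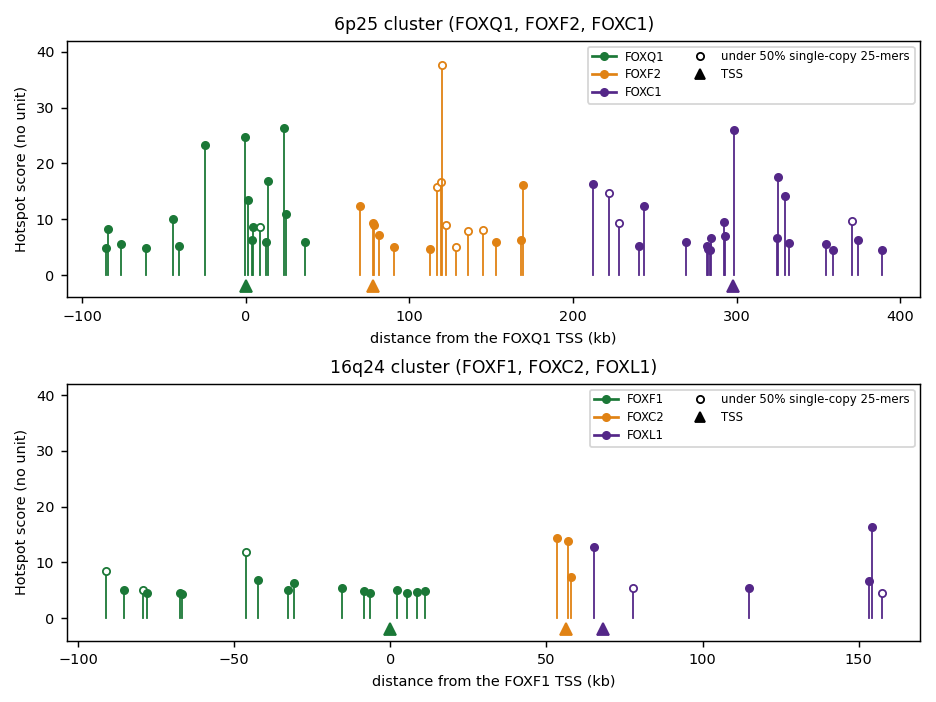
Hotspots assigned to the genes of the 6p25 cluster (upper panel) and the 16q24 cluster (lower panel), with the distance in kb from the FOXQ1 or FOXF1 TSS on the x axis and the Hotspot score (no unit) on the y axis; open points are of mostly repeated sequence and triangles are TSSs. At 6p25, 5 hotspots exceed 20, while the tallest at 16q24 scores 16.4.

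At 1p33, FOXD2 and FOXE3 stand 21.8 kb apart and differed at the promoter. FOXD2, a gene of kidney and facial mesenchyme, had a promoter hotspot of 27.5 over 1226 bp, and FOXE3 had none. FOXD1 of kidney stroma, on chromosome 5, scored 21.0 over 1751 bp.

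Few hotspots of the forkhead genes held the letters of a forkhead or AP-1 site at their centre. In the central 120 bp a forkhead site was found in 9 of 501 assigned hotspots (1.80%, interval 0.948 to 3.38%), against 2.22% of all hotspots. An AP-1 site was found in 21 (4.19%, interval 2.76 to 6.32%), against 5.81%, and a TEAD site in 33 (6.59%, interval 4.73 to 9.11%), against 7.41%. AP-1 and TEAD factors are abundant in cultured epithelial cells. All 3 intervals held the share over all hotspots. Among hotspots above the median score, an AP-1 site was found in 9 of 251 (3.59%, interval 1.90 to 6.67%), against 7.30% of all such hotspots, which lies outside that interval. Longer windows of the same 251 did not repeat this. In the central 200 bp the share was 7.97% (interval 5.22 to 12.0%), against 10.8%. In whole hotspots it was 15.5% (interval 11.6 to 20.5%), against 17.7%. The centres of 5 distal hotspots, read on the plus strand of hg38, are given with forkhead and AP-1 sites in capitals. The first was the only one of the 10 tallest with such a site, the next 3 are among the tallest others with one, all of mostly single-copy sequence, and the last, low in score, was chosen because it holds both motifs; all but the first were chosen after their values were seen.
FOXO3, chr6:108557973-108558092, score 34.1: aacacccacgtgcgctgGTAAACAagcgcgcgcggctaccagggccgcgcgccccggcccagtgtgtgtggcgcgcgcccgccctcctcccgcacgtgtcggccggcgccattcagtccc
FOXK1, chr7:4744978-4745097, score 22.6: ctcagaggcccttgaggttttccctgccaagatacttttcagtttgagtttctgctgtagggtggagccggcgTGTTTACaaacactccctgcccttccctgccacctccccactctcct
FOXC1, chr6:1637310-1637429, score 17.7: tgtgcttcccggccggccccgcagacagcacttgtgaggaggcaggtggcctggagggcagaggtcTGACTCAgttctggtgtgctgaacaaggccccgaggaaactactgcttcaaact
FOXN3, chr14:89479826-89479945, score 16.2: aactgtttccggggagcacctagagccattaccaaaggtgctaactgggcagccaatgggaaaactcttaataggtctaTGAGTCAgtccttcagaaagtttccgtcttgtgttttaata
FOXD1, chr5:73365413-73365532, score 4.52: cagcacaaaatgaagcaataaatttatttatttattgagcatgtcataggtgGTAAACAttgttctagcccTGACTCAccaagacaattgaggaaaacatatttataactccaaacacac

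The FOXO3 centre lay at -1802 bp in a stretch with 75% G+C, with the forkhead site on the minus strand. That of FOXK1 lay in an intron of the gene, 4179 bp past a TSS, with the site on the plus strand. The centres of FOXC1, in a GMDS intron, and FOXN3, in its own intron, held an AP-1 site each. The FOXD1 centre, 83304 bp downstream, held 1 forkhead and 1 AP-1 site. A match of 7 letters is a description of the sequence and says nothing of what was bound.

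Genes that act with forkhead factors had open promoters throughout. All 11 regulators of FOXO (the PI3K, AKT, SGK, USP7 and SIRT1 genes) had a promoter hotspot, with a median highest score of 31.6, from 9.74 at AKT1 to 42.2 at SIRT1. All 12 FOXO target genes had one, with a median of 32.9, from 15.2 at KLF2 to 44.2 at CCNG2, a cyclin that FOXO factors induce. All 12 partners and targets of FOXM1 had one, with a median of 23.1, from 10.3 at BIRC5 to 48.5 at LIN52, a subunit of MuvB. All 7 partners of FOXA1 had one, but they differed widely, with 7.12 at ESR1, the oestrogen receptor, against 33.1 at GATA3 and 44.2 at TLE1. Over all genes 74.9% had a promoter hotspot. The lists were chosen with earlier results in view, so their counts are a description.

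The forkhead genes stood between 2 other families of transcription factors. Of the forkhead genes 34 of 45 (75.6%, interval 61.3 to 85.8%) had a promoter hotspot, against 12 of 19 SOX genes (63.2%, interval 41.0 to 80.9%) and 15 of 18 KLF genes (83.3%, interval 60.8 to 94.2%). The median highest score was 15.5 for forkhead, 6.09 for SOX and 28.4 for KLF genes. Those in the highest 10% were 17 of 45 forkhead, 3 of 19 SOX and 12 of 18 KLF genes. The intervals of the shares overlapped, and no test was made with 1 pooled list. The median number of assigned hotspots was 8 for forkhead, 8 for SOX and 10.5 for KLF genes.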

How the data were processed

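ATAC-seq reads of 5 MCF10A replicates were mapped to hg38 with Bowtie2 by the authors, merged, freed of duplicates and passed to Hotspot (version 4.1; 50000 bp background windows, merging within 150 bp, false discovery rate 0.01). The authors deposited 1 list of regions with a Hotspot score each. Replicates were pooled before calling, so neither depth nor replicate error is known, and a score depends on the local background and on how reads of repeated sequence were placed.

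TSSs were those of protein-coding transcripts of GENCODE release 44 (19663 genes, 78471 TSSs, mitochondrial genes left out). Distance ran from the nearest base of a hotspot. Motifs were exact matches on both strands, and 25-mers were counted over the main chromosomes (Python 3.11.15, NumPy 2.4.6, SciPy 1.17.1, pysam 0.24.0). Promoter sequences were RefSeq's (GRCh38.p14), matched by symbol for 34 of 45 members. Assignment and motif code was tested on simulated data. The members, gene lists and role groups were chosen with earlier results of these data known. Named were the members, apart from items not reported here, with values for the 10 tallest promoters, the 10 with most hotspots, FOXA1, both clusters, those without a promoter hotspot and the 10 tallest distal hotspots. Alternatives changed 1 choice at a time.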

Additional observations from a re-analysis of the deposited data

How the results depend on the processing

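The count of 34 forkhead genes with a promoter hotspot stayed between 25 and 39 under TSS windows of 500 and 2000 bp, the canonical TSS, overlap by midpoint, hotspots above the median score, single-copy sequence, hotspots at 1 gene only and the omission of chromosome 20 and distal chromosome 5. It was 17 with hotspots of the highest 10%, an alternative added after seeing the data, as were those on single-copy and shared hotspots. The share of all genes moved beyond its narrow interval: 71.9% at 500 bp, 78.8% at 2000 bp, 67.3% above the median score, 73.9% by midpoint, 70.6% with the canonical TSS, 61.5% for hotspots at 1 gene only and 46.5% in the highest 10%. Keeping only hotspots above the median score gave 4 assigned hotspots per forkhead gene, 251 in total and 2 per gene over all genes. Letting the TSSs of all annotated genes compete gave 3, 191 and 3, so the excess per forkhead gene was lost. Both leave fewer hotspots by construction; beyond that the cause was not tested. Longer windows held more sites: in whole hotspots 5.39% at forkhead genes held a forkhead site, against 6.65% of all hotspots, and 12.8% an AP-1 site, against 12.6%. In the central 200 bp 8.18% held an AP-1 site, against 8.66%.

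No paired analysis was possible because the replicates were pooled into 1 list. The list gives no depth, so a gene without a hotspot has no detected one at this depth.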

Other observations

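Many hotspots around forkhead genes were nearer to a start of another annotated gene or pseudogene, counting transcripts of every kind, than to the forkhead gene. When the TSSs of all annotated genes competed, 191 of the 501 assigned hotspots went to forkhead genes. Of the 17 hotspots of FOXF1, 7 went to FENDRR, the long non-coding RNA that starts beside it, and 2 stayed. Of the 9 of FOXE1, 6 went to PTCSC2 and 3 stayed. Of the 17 of FOXD2, 5 went to FOXD2-AS1 and 4 stayed. Of the 17 of FOXQ1, 6 went to LINC01394 and 6 stayed, and of the 22 of FOXC1, 9 went to transcripts of GMDS and 1 stayed. FOXP1 kept 25 of 31, FOXK2 kept 11 of 15, and FOXA3, FOXJ2, FOXJ3, FOXN1, FOXO4 and FOXS1 kept all of theirs (2, 5, 8, 7, 3 and 2).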
